A study of Mus musculus with 8 samples.

Results

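The genes of mouse chromosome 2 were followed along the chromosome in 4 DTC tumors and 4 mammary tumors. The members were selected on measured values: a gene was taken when its platform annotation gave a single symbol, when it lay on chromosome 2 and when its mean over the 8 arrays was at least 6 on the log2 scale, and it was read from its probe set with the highest mean. This gave 831 of the 10586 genes that pass the same rule anywhere in the genome, while 1049 further genes of chromosome 2 were below the minimum. The lowest member was *Mir103-2* at a mean of 6.0002 and the highest gene left out was *Eef1a2* at 5.995. Of the members, 787 code for proteins, 20 are lncRNA genes, 12 miRNA genes, 9 pseudogenes and 3 snoRNA genes.

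DTC tumors (DTC1 to DTC4) were grown under the skin of NSG mice from disseminated tumor cells of the bone marrow of BALB-neuT mice, a BALB/c strain in which an activated rat *Her2/neu* oncogene is driven in the mammary gland by a viral promoter. Mammary tumors (T1 to T4) were tumors of the same model that, by the results section of the study, also grew under the skin of NSG mice. The methods of the study name primary BALB-neuT mammary tumors and leave their host less clear. Marrow for injection was at first pooled over donors. One Affymetrix mouse gene array was hybridized per tumor, and the values are log2 signals per probe set. The tumors of both groups share the transgene. If both grew in NSG mice, they also share a host that lacks mature T, B and NK cells but still supplies macrophages, fibroblasts and vessels. If the mammary tumors were instead taken from BALB-neuT mice, differences of host and of group cannot be told apart. The sample labels name early disseminated cells, whereas in the study tumors grew only from donors with invasive disease. The sample labels derive the mammary tumors from TUBO cells, a line of a BALB-neuT mammary carcinoma, whereas the extraction protocol names primary tumors. Under the TUBO label, a single cell line would stand behind all of T1 to T4, and features of that line and of mammary tumors in general cannot be told apart. No source says that each tumor grew in its own mouse, so p-values measure only the spread between these tumors, which may be partly technical. DNA was not measured, so the number of copies of chromosome 2 in these tumors was not tested.

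Genes on a chromosome are not one pathway, but they share a DNA molecule. In tumor cells that have gained or lost a chromosome or a stretch of it, the transcripts of many neighbouring genes are known to move together by a small amount, and a stretch that ends inside a chromosome leaves a step in the gene order. Mouse chromosome 2 carries genes of many functions, among them spindle checkpoint and replication genes (*Bub1*, *Bub1b*, *Aurka*, *Pcna*), the luminal transcription factor *Gata3*, the glycolytic regulator *Pfkfb3*, the Hoxd cluster and the imprinted *Gnas* region. These statements are background and were not tested in these tumors.

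The 5 promoters below belong to *Pfkfb3*, the only member that passed the test, and to 3 genes of cell division, the list with the highest median difference. Sequences are the 250 bases before a RefSeq start (build GRCm38.p6), written in the direction of the gene, and RefSeq promoters were found for 714 of the 831 members. In the 2 *Pfkfb3* promoters capitals mark ACGTG, the core read by hypoxia-inducible factors, on either strand. In *Bub1b*, *Bub1* and *Ube2c* capitals mark the CCAAT box, read by the factor NF-Y, and TTTGAA, the element of many mitotic promoters called the cell cycle homology region, on either strand. ACGTG was not marked in these 3 genes. The promoters of *Bub1b* and *Bub1* also hold it, on the opposite strand as CACGT, so it is not particular to *Pfkfb3*.
*Pfkfb3*, first start, chr2:11553930-11554179, minus strand: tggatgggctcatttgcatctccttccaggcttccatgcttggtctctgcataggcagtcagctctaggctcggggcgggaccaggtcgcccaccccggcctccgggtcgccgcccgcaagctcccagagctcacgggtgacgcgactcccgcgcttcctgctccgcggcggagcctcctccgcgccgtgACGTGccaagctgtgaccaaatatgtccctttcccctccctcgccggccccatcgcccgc
*Pfkfb3*, other start, chr2:11502091-11502340, minus strand: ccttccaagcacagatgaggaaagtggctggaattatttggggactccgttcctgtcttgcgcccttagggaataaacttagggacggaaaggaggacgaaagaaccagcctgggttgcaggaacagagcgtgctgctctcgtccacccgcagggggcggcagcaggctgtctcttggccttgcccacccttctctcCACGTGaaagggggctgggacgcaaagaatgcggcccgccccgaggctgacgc
*Bub1b*, chr2:118597961-118598210, plus strand: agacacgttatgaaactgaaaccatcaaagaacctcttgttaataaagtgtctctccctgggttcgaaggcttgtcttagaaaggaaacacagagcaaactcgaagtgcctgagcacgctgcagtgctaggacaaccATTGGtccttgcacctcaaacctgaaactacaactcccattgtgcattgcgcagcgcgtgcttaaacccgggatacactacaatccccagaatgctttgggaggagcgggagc
*Bub1*, chr2:127831860-127832109, minus strand: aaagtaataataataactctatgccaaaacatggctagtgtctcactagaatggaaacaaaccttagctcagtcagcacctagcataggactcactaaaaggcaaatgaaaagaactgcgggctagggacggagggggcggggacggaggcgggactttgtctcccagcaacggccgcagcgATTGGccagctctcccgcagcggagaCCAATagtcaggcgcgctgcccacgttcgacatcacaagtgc
*Ube2c*, chr2:164769679-164769928, plus strand: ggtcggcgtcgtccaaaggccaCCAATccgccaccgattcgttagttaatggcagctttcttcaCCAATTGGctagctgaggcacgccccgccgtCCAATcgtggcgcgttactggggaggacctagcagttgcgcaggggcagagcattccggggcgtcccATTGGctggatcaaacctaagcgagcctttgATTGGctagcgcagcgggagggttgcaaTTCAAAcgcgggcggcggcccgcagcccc
The first *Pfkfb3* promoter held ACGTG 1 time, and the other held it 2 times in 1 palindrome, read once on each strand. ACGTG was found in 16.6% of all 32851 promoters of this length and in 20.9% of the 905 promoters of members. *Bub1b* held 1 CCAAT box and *Bub1* held 2, against a share of 33.8% of all promoters and 31.3% of promoters of members that held at least 1. *Ube2c* held 6 CCAAT matches, of which 2 overlap on opposite strands, and 1 TTTGAA match, a string found in 5252 of all 32851 promoters and in 11.6% of promoters of members. Of the 30 promoters of cell division members, 15 held CCAAT, 11 held ACGTG and 3 held TTTGAA. The promoter of *Kif18a*, a cell division gene with a larger difference than *Bub1* and *Ube2c*, held none of the 3 strings and is not shown. A match is a description of letters and not a binding site.

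The genes of chromosome 2 were on the whole slightly higher in DTC tumors than in mammary tumors, but the single tumors of a group differed among themselves by more than the groups did. The median log2 difference, DTC minus mammary tumors, was 0.12 over the 831 genes, and 606 of them (72.9%) had the higher mean in DTC tumors. Over the 9425 genes of the other autosomes the median was -0.029 and 44.0% were higher. The quartiles of the chromosome 2 genes were -0.012 and 0.25, and those of the other autosomes -0.18 and 0.11. No test was made of this difference, because the chromosome was chosen with its median known. Without DTC3 the median was 0.19.

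Not all tumors followed their group. In each tumor, the deviation of a gene from its mean over the 8 tumors was taken, and the median over the members was given relative to the median over the genes of the other autosomes. This median was 0.17 in DTC1, 0.19 in DTC2, -0.16 in DTC3 and 0.12 in DTC4, against -0.10 in T1, -0.14 in T2, -0.13 in T3 and 0.076 in T4. DTC3 was thus the lowest of all 8 tumors although the other 3 of its group were the highest, and T4 was above the other 3 mammary tumors. The groups overlapped. DTC2 and DTC3 differed by 0.34 on the log2 scale, a ratio of 1.27.

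The shift was spread over most members and was not carried by a few genes. Of the 831 genes, 82.2% were above 0 in DTC1, 81.7% in DTC2, 20.1% in DTC3 and 69.1% in DTC4, against 24.9% in T1, 21.3% in T2, 20.3% in T3 and 63.1% in T4. The other autosomes split evenly by construction. The quartiles over genes were 0.051 and 0.29 in DTC1, and -0.28 and -0.033 in DTC3. The shift was smallest among the genes with the lowest levels: the median of DTC1 minus DTC3 was 0.28 in the 277 genes with the lowest means, 0.37 in the 277 in the middle and 0.35 in the 277 with the highest means. With the minimum mean set at 5, 6 or 7, the median difference of chromosome 2 less that of the other autosomes was 0.12, 0.15 and 0.16. Among biotypes the 787 protein-coding genes had a median difference between the groups of 0.12, the 20 lncRNA genes 0.045 and the 12 miRNA genes 0.11. The miRNA genes, read here from a probe set of the locus, were at -0.041 in DTC1 and 0.13 in DTC3, so that their order over the tumors was not that of the protein-coding genes. Several of them, from *Mir467c* to *Mir297a-4*, are consecutive members in window 2 of the gene order. The miRNA median may therefore in part describe a single place on the chromosome.

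**Figure D1:**
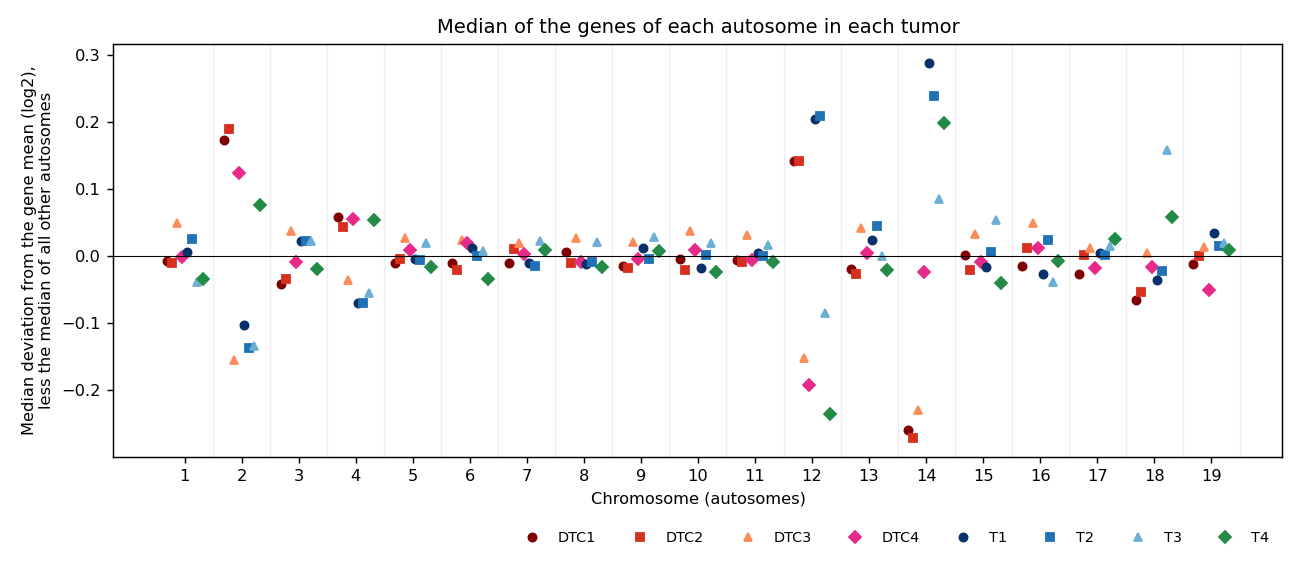
Median over the genes of each autosome, as deviation from the 8-tumor mean of each gene (log2, vertical axis) less the median of all other autosomes, in DTC1 to DTC4 (reds, orange and pink) and T1 to T4 (blues and green), 1 point per tumor. On chromosome 2 the points run from -0.16 (DTC3) to 0.19 (DTC2), a range passed only by chromosomes 12 and 14.

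Among the 19 autosomes, chromosomes 2, 12 and 14 stood out by the range of their medians over the tumors. The range was 0.34 on chromosome 2, 0.44 on chromosome 12, 0.56 on chromosome 14 and between 0.036 and 0.22 on each of the other 16. The median difference between the groups was -0.42 on chromosome 14 and -0.042 on chromosome 12, and lay between -0.090 and 0.027 on the other 16. Tumors were ordered differently on each of the 3: T4 was at 0.076 on chromosome 2, -0.24 on chromosome 12 and 0.20 on chromosome 14. Chromosome 2 was the only one of the 19 with a median difference above 0.027.

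Over the 8 tumors, the profile of chromosome 2 was shared by many of its genes. Pearson's r between a gene and the profile of the chromosome had a median of 0.70 over the 831 members, of which 49.3% were above 0.7 and 9.87% below 0. Over the 9425 genes of the other autosomes the median was -0.020 and 7.13% were above 0.7. Members are part of the profile they are compared with and the 8 tumors are the same points for every gene, so these values carry no test. The genes closest to the profile, chosen after their values were seen, were *Cstf1*, a subunit of the factor that cuts the ends of messenger RNA, at an r of 0.997, the transcriptional repressor *Tgif2* at 0.99 and the lipid carrier *Stard7* at 0.98. *Cstf1* was 8.27 in DTC1, 8.24 in DTC2, 7.67 in DTC3 and 8.15 in DTC4, against 7.80 in T1, 7.75 in T2, 7.77 in T3 and 8.04 in T4. As on the chromosome, DTC3 was the lowest of the 8 and T4 was above the other mammary tumors.

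Along the chromosome, 33 windows of 25 consecutive members were cut in gene order, the last holding 31. The median difference between the groups was above 0 in 31 windows, and in 116 of the 339 windows cut in the same way on the other 16 autosomes (leaving out chromosomes 12 and 14). DTC1 and DTC2 were above 0 in all 33 windows, with DTC1 between 0.052 and 0.30 and DTC2 between 0.077 and 0.29. DTC3 was below 0 in all 33, between -0.26 and -0.089. T1, T2 and T3 were also below 0 in all 33, and T4 was below 0 in 3. T4 was low at the start of the chromosome: its best single step lay after 56 genes, between *Bmi1* and *Pip4k2a*, with a median of -0.068 before it and 0.084 after it. The other 6 tumors kept their side of 0 in every window.

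**Figure D2:**
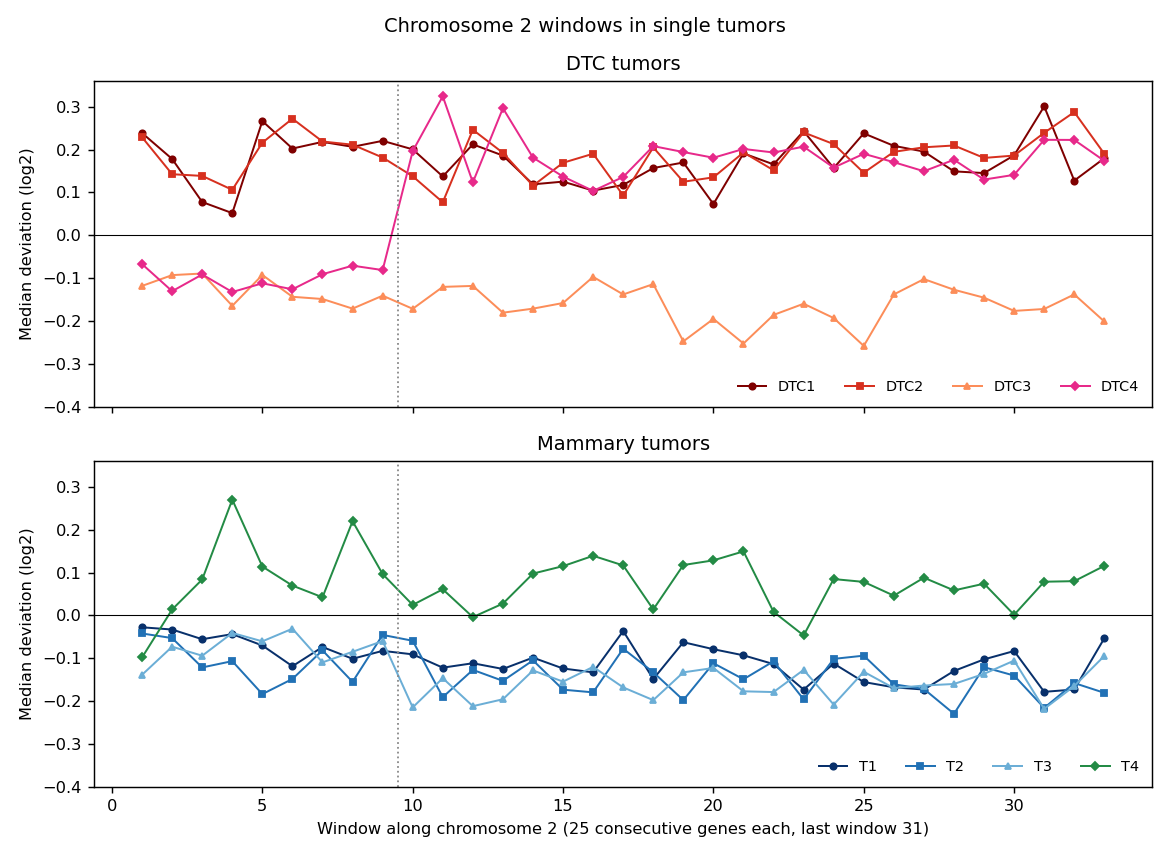
Median deviation (log2, vertical axis) of windows of 25 consecutive genes of chromosome 2 (horizontal axis, window number from the start of the chromosome), 1 line per tumor, with DTC tumors above and mammary tumors below. The dotted line lies between windows 9 and 10, where DTC4 passes from -0.081 to 0.20, while the lines of the other 7 tumors show no lasting change of sign there.

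DTC4 had a larger step. Its window medians were below 0 in windows 1 to 9, between -0.13 and -0.067, and above 0 in windows 10 to 33, between 0.10 and 0.32. In windows 1 to 9 (225 genes) the median over genes was 0.20 in DTC1, 0.19 in DTC2, -0.12 in DTC3 and -0.10 in DTC4, against -0.067 in T1, -0.10 in T2, -0.072 in T3 and 0.087 in T4. In windows 10 to 33 (606 genes) it was 0.17 in DTC1, 0.19 in DTC2, -0.17 in DTC3 and 0.18 in DTC4, against -0.12 in T1, -0.15 in T2, -0.16 in T3 and 0.074 in T4. DTC4 thus lay beside DTC3 in the first stretch and beside DTC1 and DTC2 in the second. The split was chosen after the windows were seen, so it carries no test.

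The change of level in DTC4 could be placed in gene order. When DTC4 was set against the mean of DTC1 and DTC2 gene by gene, the best single step lay after 228 genes, between *Pdcl*, a phosducin-like chaperone of G proteins, and *Rc3h2*, an RNA-binding ubiquitin ligase. The median was -0.31 before the step and 0.023 after it. Before the step 196 of the 228 genes (86.0%) were below 0, and after it 269 of 603 (44.6%). The same place was found after cyclic loess normalization and with minimum means of 5 and 7. Centring each array on a median shifts all its genes alike, so it cannot move the place. Among members with an interquartile range above 0.25 the place lay between *Mrrf* and *Zbtb6*. Without DTC1 it lay between *Mrrf* and *Pdcl*. Over all tumors and autosomes, the step of DTC4 on chromosome 2 (0.29 by its own deviation) was the fifth in size, after steps of 0.29 to 0.35 in the 4 DTC tumors on chromosome 4.

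**Figure D3:**
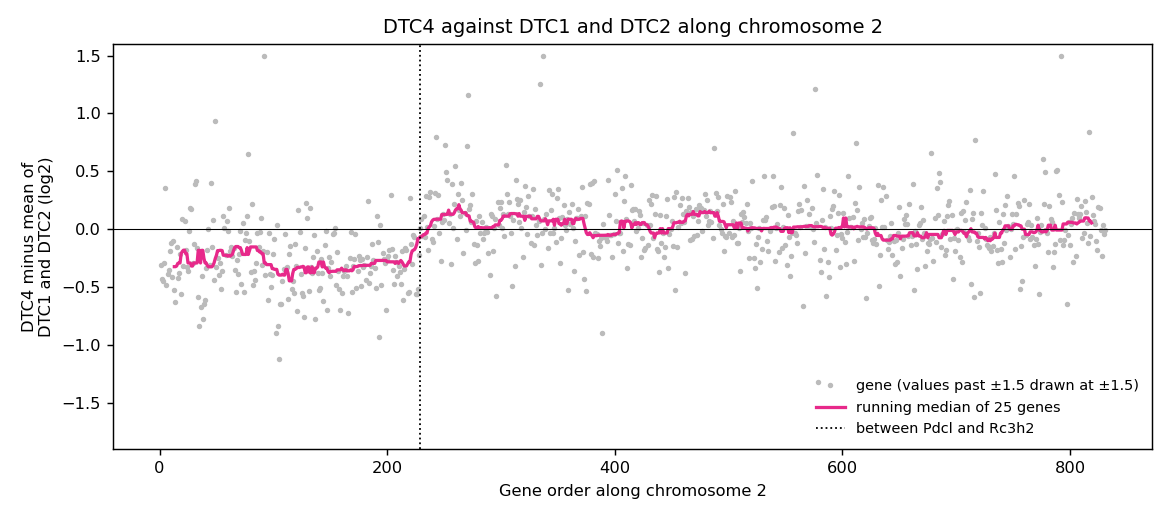
Difference of DTC4 from the mean of DTC1 and DTC2 (log2, vertical axis) for the 831 members in gene order along chromosome 2 (horizontal axis), as grey points, with a running median over 25 genes as a pink line. The few values past the limit named in the legend are drawn at it. The median of the points is -0.31 left of the dotted line between *Pdcl* and *Rc3h2* and 0.023 right of it.

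In the first stretch of chromosome 4 the same tumors were high and low as on chromosome 2. Its windows 1 to 7 (175 genes, chosen after their values were seen) had medians of 0.31 in DTC1, 0.32 in DTC2, -0.28 in DTC3 and 0.32 in DTC4, against -0.26 in T1, -0.24 in T2, -0.29 in T3 and 0.11 in T4. All signs equal those of chromosome 2, and the values are larger. In the remaining 450 genes of chromosome 4 the medians lay between -0.037 and 0.035. All 5 windows of the other 16 autosomes with a median difference above the highest window of chromosome 2 lay in this stretch. Whether the 2 stretches are linked in the same cells was not tested.

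The difference between the groups varied along the chromosome with these single tumors. It was 0.050 in windows 1 to 9, where 60.0% of genes were higher in DTC tumors, and 0.15 in windows 10 to 33, where 77.7% were higher. Without DTC4 the medians were 0.099 and 0.12. The highest windows were window 12, from *Stk39* to *Sp3os*, at 0.26, window 23, from *Mrps26* to *Crls1*, at 0.25, and window 32, from *Zbp1* to *Mtg2*, at 0.22. The lowest were window 4, from *Pnpla7* to *Nacc2*, at -0.048, window 3, from *Plxdc2* to *Dph7*, at -0.016, and window 17, from *Fbxo3* to *Emc7*, at 0.017. Window 4 was also where T4 was at its highest, 0.27.

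Within these windows the members with the largest differences had varied roles. In window 12 *Pdk1*, a kinase that shuts pyruvate dehydrogenase, was 8.58, 8.51, 8.08 and 8.61 in DTC1 to DTC4, against 7.60, 7.81, 7.64 and 8.13 in T1 to T4, a log2 fold change of 0.65 (standard error 0.19). DTC3 was within the range of the mammary tumors. In window 23 the membrane transporter *Slc4a11* differed by 0.84 and *Smox*, an oxidase of spermine, by 1.098. In window 32 *Prelid3b*, a carrier of mitochondrial lipids, differed by 0.41. In window 4 *Lrrc26* and *Tmem141* were lower in DTC tumors, at -1.67 and -0.45, and in window 3 *Plxdc2*, a membrane receptor, at -0.70 and *Msrb2*, which repairs oxidized methionine, at -0.41. In window 17 *Kif18a* and *Ccdc34* were higher in DTC tumors, at 0.70 and 0.48, and *Muc15* was lower, at -2.51. The groups overlapped for *Slc4a11*, *Prelid3b*, *Plxdc2* and *Msrb2*. None of these genes passed the test described next.

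Single genes were tested with limma on the 18877 probe sets whose interquartile range was above 0.25. A gene was called when its p, adjusted by the Benjamini-Hochberg method, was 0.05 or less and its log2 fold change was 1 or more in size. Of the 831 members 469 were tested. *Pfkfb3* was called higher in DTC tumors, which is 1 of 469 members, beside 0.0636% of all tested probe sets, and no member was called lower, beside 0.0689% of all tested probe sets. With an unadjusted p up to 0.05, 76 members were higher (16.2% of those tested, against 10.4% of all tested genes by the same rule) and 14 were lower (2.99%, against 19.9%). The count of 76 was 153 without DTC3, and between 36 and 50 without any 1 of DTC1, DTC2, DTC4, T1, T2 and T3. With each array centred on its median over autosomes other than 2, 12 and 14, 65 members were higher and 23 lower. Groups did not overlap for 64 of the 831 members that were higher in DTC tumors (7.70%, against 5.31% of all genes) and for 16 that were lower (1.93%, against 10.2%). The background for lower genes includes chromosome 14, on which 202 of 361 genes were lower without overlap. Outside chromosome 14 it was 878 of 10225 genes (8.59%), still above the share of members. Of the 64 genes, 60 lay in windows 10 to 33 (9.90% of 606 genes) and 4 in windows 1 to 9 (1.78% of 225). Of the 16 lower genes, 9 lay in windows 10 to 33 (1.49%) and 7 in windows 1 to 9 (3.11%). The split was placed at the step of DTC4, which was low in windows 1 to 9, so these shares are not independent of that step.

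*Pfkfb3*, an enzyme that makes the main activator of the phosphofructokinase step of glycolysis, rose in DTC tumors. It was 7.75 in DTC1, 7.43 in DTC2, 7.74 in DTC3 and 7.41 in DTC4, against 6.04 in T1, 6.49 in T2, 6.23 in T3 and 5.82 in T4. All DTC tumors were above all mammary tumors, DTC3 included, and *Pfkfb3* lies in window 2, before the step of DTC4. Means were 7.58 ± 0.18 in DTC tumors and 6.15 ± 0.28 in mammary tumors (SD, n = 4 each), and the log2 fold change was 1.44 (standard error 0.19, adjusted p = 0.018 from limma). Its r to the chromosome 2 profile was 0.41. The call was lost without DTC1 (adjusted p = 0.0657), DTC2 (0.0553), T1 (0.0681) or T3 (0.0678) in the same limma fit.

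Further members had separate groups and a fold past the threshold, but an adjusted p above it. *Plcb1*, a phospholipase C that signals from G protein-coupled receptors, was 7.49, 7.52, 7.70 and 7.95 in DTC1 to DTC4, against 6.57, 5.75, 6.17 and 6.96 in T1 to T4. *Ralgapa2*, a subunit of a complex that switches off Ral GTPases, was 8.60, 8.61, 8.11 and 8.56 in DTC tumors, against 7.42, 7.09, 7.45 and 7.80 in mammary tumors. The groups did not overlap in either gene, and DTC3 was the lowest DTC tumor for *Ralgapa2* only. Their log2 fold changes were 1.30 (adjusted p = 0.0812 from limma) and 1.03 (adjusted p = 0.0806 from limma). *Smox* was 9.495, 8.79, 8.83 and 8.45 in DTC tumors, against 7.77, 7.54, 8.16 and 7.70 in mammary tumors (1.098, adjusted p = 0.102 from limma).

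*Slpi*, a secreted inhibitor of neutrophil proteases, had the largest positive difference, 1.73, but DTC3 alone stood far above the rest. It was 7.37, 6.94, 9.27 and 7.27 in DTC1 to DTC4, against 5.98, 6.24, 6.03 and 5.69 in T1 to T4 (adjusted p = 0.136 from limma). Without DTC3 the difference was 1.21 and the adjusted p from limma was 0.0498. As DTC3 made most of the spread in its group, the lower p follows in part from leaving it out. *Slpi* was not called with any other tumor left out. *Bmp7*, a ligand of the BMP pathway, averaged 7.50 ± 0.37 in DTC tumors and 6.71 ± 0.31 in mammary tumors, and *Nnat*, an imprinted gene for a small membrane protein, 7.43 ± 0.13 in DTC tumors and 6.70 ± 0.044 in mammary tumors (SD, n = 4 each). *Nnat* had the narrowest groups among the 10 highest genes.

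**Figure D4:**
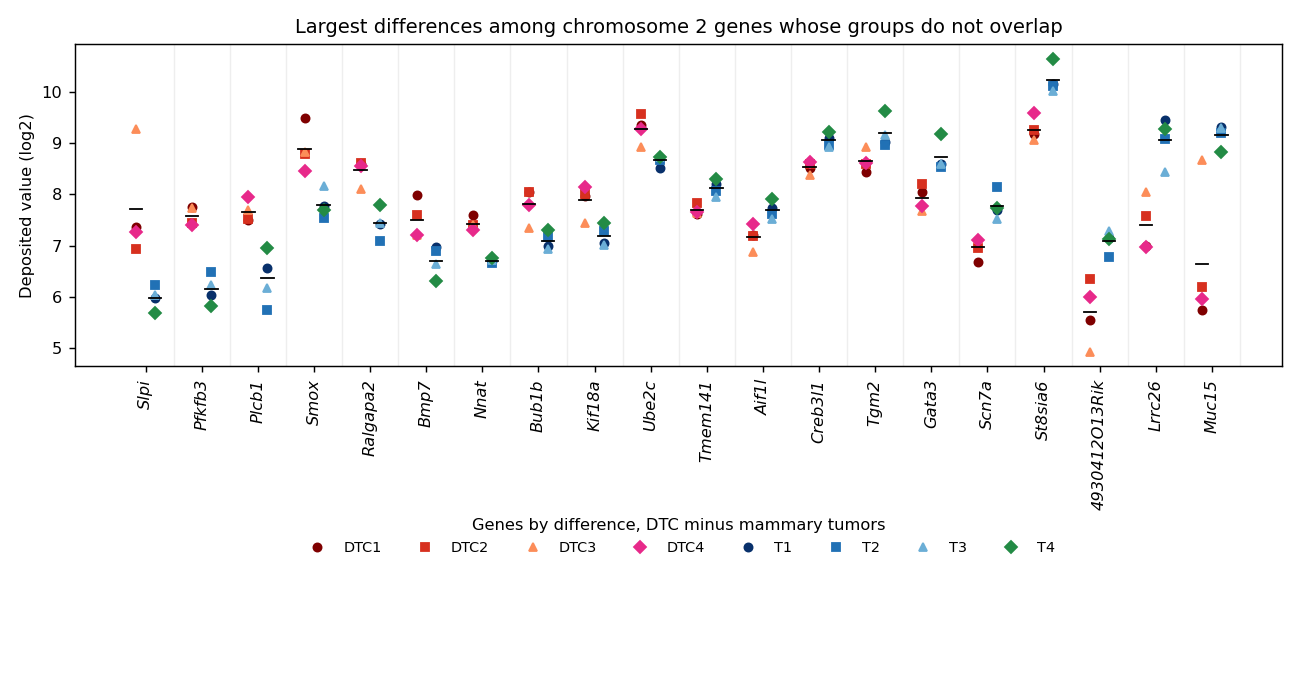
Deposited values (log2, vertical axis) of the 10 highest and 10 lowest tested members by log2 fold change among those whose groups do not overlap, in DTC tumors (reds, orange and pink, left of each gene's mark) and mammary tumors (blues and green, right), 1 point per tumor with a bar at the group mean. Differences run from 1.73 (*Slpi*) to -2.51 (*Muc15*), and DTC3 stands apart from the other DTC tumors for both.

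The lowest member was *Muc15*, a membrane mucin, at -2.51 (adjusted p = 0.0990 from limma). It was 5.75, 6.20, 8.67 and 5.96 in DTC1 to DTC4, against 9.32, 9.20, 9.30 and 8.83 in T1 to T4. DTC3 was close to the mammary tumors, and without it the difference was -3.19 and the adjusted p from limma was 0.00022. *Muc15* has a wide gap between DTC3 and its group, so this lower p follows in part from leaving that tumor out. *Lrrc26*, an auxiliary subunit of potassium channels in secretory epithelium, was 6.98, 7.58, 8.05 and 6.97 in DTC tumors, against 9.46, 9.08, 8.44 and 9.28 in mammary tumors (-1.67, adjusted p = 0.0637 from limma). Without DTC3 *Lrrc26* also passed, at -1.88 and an adjusted p of 0.0412 from limma. Neither *Muc15* nor *Lrrc26* was called with any other tumor left out. The lncRNA gene *4930412O13Rik* stood at -1.38 and *St8sia6*, a sialyltransferase, at -0.97.

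*Gata3*, the transcription factor that maintains luminal mammary cells, was 8.04, 8.20, 7.68 and 7.78 in DTC1 to DTC4, against 8.59, 8.53, 8.60 and 9.17 in T1 to T4. The groups did not overlap, T4 was the highest, and the log2 fold change was -0.80 (standard error 0.20, adjusted p = 0.136 from limma). *4930412O13Rik* is its neighbour in the order of members. Also lower without overlap were *Scn7a*, a sodium channel protein (-0.81), *Tgm2*, which crosslinks proteins (-0.55), *Creb3l1*, a transcription factor of secretory and collagen genes (-0.53), *Aif1l*, an actin-binding protein (-0.51), and *Tmem141* (-0.45). The 10 lowest genes lay in 8 windows, with 5 of them in windows 1 to 4.

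The cell division genes of the chromosome had the highest median of the lists, 0.45, beside 0.12 over all members and -0.019 over all genes. Of 31 members all had the higher mean in DTC tumors, 28 were tested, 18 of these were higher with an unadjusted p up to 0.05 (against 10.4% of all tested genes) and none passed the adjusted threshold in limma. Groups did not overlap for 9 of the 31 (against 5.31% of all genes). In bulk tumors, a larger number of dividing cells and more RNA per dividing cell cannot be told apart. Their medians were 0.30 in DTC1, 0.42 in DTC2, -0.16 in DTC3 and 0.42 in DTC4, against -0.29 in T1, -0.20 in T2, -0.29 in T3 and -0.14 in T4. Thus T4, above 0 on the chromosome as a whole, was below 0 for these genes, and without them the chromosome median was 0.11 (800 genes).

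*Bub1b*, which holds the spindle checkpoint until chromosomes are attached, was 8.04, 8.05, 7.35 and 7.79 in DTC1 to DTC4, against 6.996, 7.16, 6.94 and 7.30 in T1 to T4 (0.71, adjusted p = 0.163 from limma). *Kif18a*, a kinesin that aligns chromosomes, was 7.98, 8.01, 7.45 and 8.14 in DTC1 to DTC4, against 7.05, 7.29, 7.01 and 7.44 in T1 to T4 (0.70, adjusted p = 0.164 from limma). In both, DTC3 was the lowest DTC tumor and only just above T4. *Ube2c*, the ubiquitin carrier of the anaphase-promoting complex, differed by 0.62 without overlap. The checkpoint kinase *Bub1* differed by 0.68 and *Cdca7*, a chromatin factor, by 0.64, and for both DTC3 lay within the mammary range (7.83 for *Bub1* and 6.37 for *Cdca7*).

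**Figure D5:**
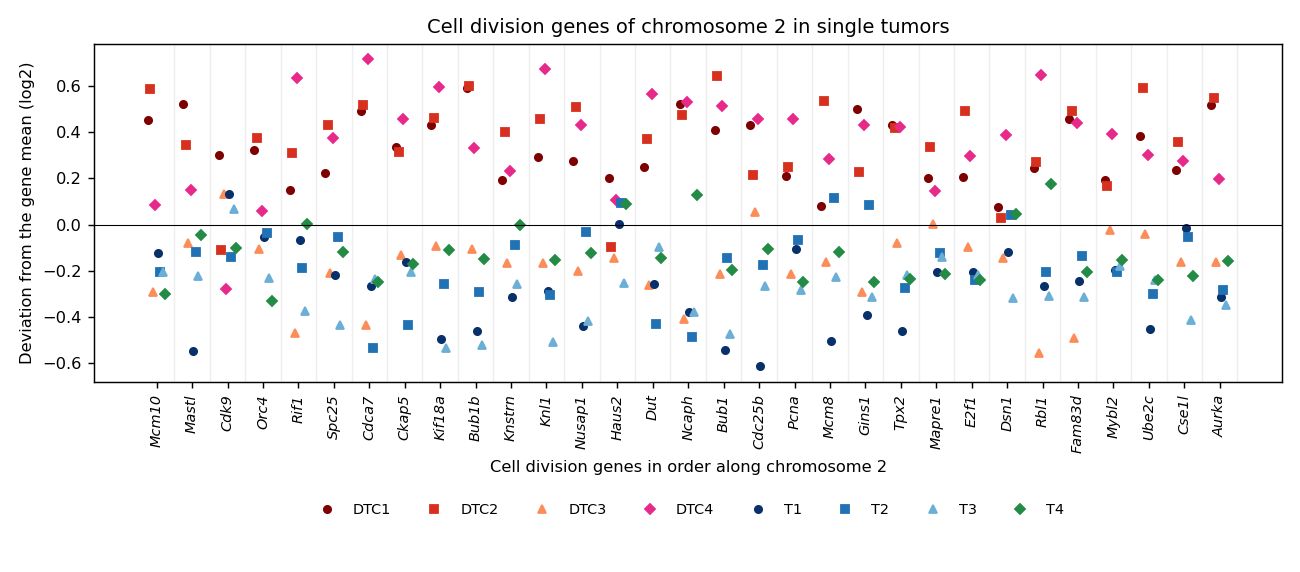
Deviation of each tumor from the gene's mean over the 8 tumors (log2, vertical axis) for the 31 cell division members in order along chromosome 2 (horizontal axis), with DTC tumors in reds, orange and pink and mammary tumors in blues and green. DTC1, DTC2 and DTC4 lie above the mammary tumors for most genes, while DTC3 lies among them.

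The other lists had medians nearer to that of the chromosome. The epithelial and luminal list had a median of 0.037 (19 members, 12 of them higher), with 4 of 12 tested genes higher and 1 lower with an unadjusted p up to 0.05, against 10.4% higher and 19.9% lower among all tested genes. In it *Jag1*, a Notch ligand, was 7.71, 6.91, 6.44 and 6.92 in DTC1 to DTC4, against 5.76, 5.93, 6.74 and 5.91 in T1 to T4, with T3 above DTC3. *Duox1*, which makes hydrogen peroxide at the apical membrane, was near 10.1 in DTC1, DTC2 and DTC4 and 8.37 in DTC3, against 9.31, 8.92, 9.20 and 9.04 in T1 to T4. The list of oxygen, metabolic and protein-folding stress had a median of 0.084 (18 members, 11 higher), with *Pfkfb3* its only gene past the adjusted threshold and *Gatm*, an enzyme of creatine synthesis, at 0.40. The matrix and stroma list stood at 0.019 (14 members), with *Tgm2* and *Creb3l1* the 2 of 7 tested genes lower with an unadjusted p up to 0.05, a share to be read against the same 19.9%.

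The 21 immune and interferon members had a median of 0.099, with none of 12 tested past an unadjusted p of 0.05, but their spread within groups was wide. *Zbp1*, a sensor of foreign nucleic acid induced by interferon, was 9.44, 9.85, 7.84 and 10.24 in DTC1 to DTC4, against 8.68, 8.48, 8.24 and 10.41 in T1 to T4. *Ube2l6*, the carrier of the interferon-induced modifier ISG15, was 6.75, 6.92, 5.91 and 8.07 in DTC1 to DTC4, against 6.20, 6.64, 6.21 and 8.46 in T1 to T4. It was not on the list. For both, T4 was the highest and DTC3 the lowest of the 8 tumors. *Ifih1*, *Samhd1* and *B2m* of the list and *Nmi* outside it, chosen after their values were seen, had the same highest and lowest tumor, with *Ifih1* at 11.0 in T4 and 8.47 in DTC3. The median over the list was also highest in T4 (0.19) and lowest in DTC3 (-0.18), but not every member followed it. *Card9*, with the largest difference of the list (0.42), was 7.20 in DTC3, 6.35 in T4 and lowest in DTC4 (5.99). *Il1b* was 7.44 in DTC3 and lowest in T4 (6.36). *Ada* was lowest in DTC3 (6.27) but highest in DTC1 (7.72). Other genes with 1 tumor far from the rest of its group were *Osbpl6*, a carrier of sterols, at 5.13 in DTC3 and at least 8.07 in the other DTC tumors, and *Rasgrp1*, an activator of Ras, at 5.895 in DTC3 and at least 8.10 in the others. *Rasgrp1* differed by 0.92, and without DTC3 by 1.52 with an adjusted p of 0.0492 from limma. It was named for the gap of DTC3, so this p follows in part from leaving that tumor out. With any other tumor left out *Rasgrp1* was not called.

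The remaining lists were smaller. The list named for the imprinted *Gnas* region (8 members, median 0.25, 7 higher) did not hold *Gnas* itself and was not 1 region. Its members lay in window 26 (*H13*, *Mcts2*), window 28 (*Blcap*, *Nnat*) and window 32 (*Stx16*, *Npepl1*, *Nelfcd*, *Ctsz*). In this list *Nnat* and its neighbour *Blcap* did not overlap between the groups, at 0.72 and 0.38. *Nnat* lies inside *Blcap*, so signals of this pair are less certain. *Nelfcd*, a subunit of a factor that pauses transcription, differed by 0.27 and *Mcts2* by 0.33 with overlap. Of the Hoxd and Dlx list only 4 genes reached the minimum level, none of them a Hoxd gene, and *Dlx2*, a homeobox gene, was 6.41, 6.28, 6.37 and 6.13 in DTC tumors, against 5.585, 6.06, 5.91 and 5.72 in mammary tumors (0.48). The endothelial list (8 members, median 0.086) also holds general signalling genes such as *Plcb1*, and its endothelial genes *Cd93* and *Eng* stood at 0.031 and -0.011. The 5 muscle members had a median of -0.061, from -0.40 for the potassium channel gene *Kcna4* to 0.29 for *Myl9*.

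The cell types of the tumors were checked with marker lists over the whole genome. The mean log2 level of 8 epithelial markers was 9.45 to 9.62 in DTC tumors and 9.41 to 9.65 in mammary tumors. That of 10 macrophage markers was 8.14 to 8.49 in DTC tumors and 7.77 to 8.35 in mammary tumors, with T4 the lowest. That of 10 fibroblast markers was 8.30 to 8.69 in DTC tumors and 8.53 to 8.80 in mammary tumors, with T4 the highest. T and NK cell markers were between 4.42 and 4.86 in DTC tumors and between 4.30 and 4.48 in mammary tumors, and none of 8 had a mean of 6. Erythroid and bone marrow markers (5 found, none with a mean of 6) were between 4.34 and 4.54 in DTC tumors and between 4.42 and 4.47 in mammary tumors. *Hba-a1*, *Hbb-b1*, *Hbb-bs* and *Alas2* of this list were not found, so these values cannot decide whether blood or marrow cells were present. Endothelial markers (8 found, 4 with a mean of at least 6) were at 6.597 to 6.84 in DTC tumors and 6.56 to 6.79 in mammary tumors. Skeletal muscle markers (10 found, 1 with a mean of at least 6) were at 4.71 to 4.83 in DTC tumors and 4.57 to 4.80 in mammary tumors. Fat cell markers (5 found, only 1 with a mean of at least 6) varied more. They ran from 5.49 in DTC3 to 6.86 in DTC2, and between 5.86 and 6.56 in mammary tumors. DTC3 was thus the lowest and DTC2 the highest, as on chromosome 2, but T2, low on chromosome 2, came next to DTC2 at 6.56. The part of these cell types in the chromosome 2 medians was not tested.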

How the data were processed

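RNA of 8 tumors was measured on 1 Affymetrix mouse gene array each. The deposited log2 values of 41345 probe sets were made by the authors in oneChannelGUI with sketch-quantile normalization. Summarization method, software versions and genome build: not given in the sources used here. Arrays have no read depth, and their number limits the precision. Of the probe sets, 23521 had 1 gene symbol. The platform table gives no position, so chromosome and gene order came from RefSeq (GRCm38.p6) by Entrez ID. Only by their symbol were 149 probe sets placed, and 44 stayed without a chromosome.

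The test of single genes was that of limma 3.58.1 (R 4.3.3), with lmFit followed by eBayes, on 18877 probe sets. On simulated data (41345 probe sets, 50 changed per size), the adjusted p recovered 0% at a log2 change of 0.5, 76% at 1, 98% at 2 and 100% at 4. The fold threshold of a call was not applied there, so calls at a change of 1 would be fewer. Only probe sets with a mean of at least 6 were changed. Medians per chromosome, window and tumor are descriptions without a test. Gene lists were described by counts. Named genes are the called members, the 10 highest and 10 lowest without overlap, up to 4 of each list, the ends and 2 largest differences (in the direction of the median) of the 3 highest and 3 lowest windows, and the 5 members with the widest gap of 1 tumor. The members, lists and rules were chosen with earlier results of these data known. Alternatives covered the filter, normalization, variance model, minimum level, probe set choice, window size, the replicate number as a block and each tumor left out.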

Additional observations from a re-analysis of the deposited data

Results flagged for a closer look

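A tumor was marked when its distance to the nearest other tumor of its group was a large share of the group's range (Dixon's test for 4 values at the 95% level). Of 140 groups looked at, 17 were marked, 7 for DTC3 and 6 for T4. Chance alone marks about 1 in 20 groups, but the 17 cannot be read against that rate: genes on 1 chromosome are not independent, and some genes were named because 1 tumor lay far from its group, among them *Osbpl6* and *Muc15*, whose marks follow from that choice.

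On the chromosome as a whole, T4 was marked at 0.076, while the other mammary tumors lay between -0.14 and -0.10. In window 23 DTC3 was at -0.16 and the other DTC tumors between 0.21 and 0.24. In window 17 DTC3 was at -0.14 and the others between 0.093 and 0.14. In window 32 T4 was at 0.080 and the other mammary tumors between -0.17 and -0.16.

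Among genes, DTC3 stood apart for *Ralgapa2* (8.11), *Muc15* (8.67), *Duox1* (8.37), *Mtx2*, a protein of the outer mitochondrial membrane (9.17), and *Osbpl6* (5.13). It was above the other DTC tumors for *Muc15* and below them for the other 4. T4 stood above the other mammary tumors for *Gata3* (9.17), *Fitm2*, a gene of lipid droplet formation (8.64), *Lnpk*, a protein of the endoplasmic reticulum (7.47), and *Emc7* (10.04). DTC4 was low for *Kcna4* (7.84) and DTC1 high for *Notch1* (8.76). T2 was low for *Cdca7* (6.28) and T3 high for *Jag1* (6.74).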

How the results depend on the processing

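The median difference of chromosome 2 kept its sign under every alternative run, from 0.090 to 0.19 with a tumor left out, and from 0.096 to 0.13 under the other normalizations and minimum levels. Members with an interquartile range above 0.25 gave 0.21. Left-out tumors moved the share of genes higher in DTC tumors between 66.4% and 79.7%. Windows of 50 genes and left-out tumors kept at least 78.8% of windows above 0. Members with an interquartile range above 0.5 had a median difference of 0.32, and medians of 0.48 in DTC1, 0.52 in DTC2, -0.049 in DTC3 and 0.43 in DTC4, against -0.40 in T1, -0.37 in T2, -0.37 in T3 and -0.19 in T4. All moved away from 0 on their own side except DTC3, which came nearer to 0, and T4, which changed sign. The step of DTC4 against DTC1 and DTC2 (0.33) was 0.34 without DTC1 and 0.32 without DTC2. Leaving out DTC3 or a mammary tumor cannot change it, as they do not enter this measure. It was 0.27 at a minimum mean of 5 and 0.39 at 7. Among members with an interquartile range above 0.25 it was 0.40. Leaving out the cell division list or chromosome 4 was chosen after seeing the data and gave medians of 0.11 and 0.12.

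The calls depended more on the setting. *Pfkfb3* was the only member called higher, and with a tumor left out 0 to 3 members were called higher and 0 to 2 lower. With a tumor left out, members other than *Pfkfb3* were called only when that tumor was DTC3. With 1 probe set per gene 4 were called higher and 3 lower, with the mean of all probe sets 5 and 3, with robust and trended eBayes 2 and 1, and with array weights 2 and 2. At a minimum mean of 7, which removes *Pfkfb3*, 0 were called. Under the replicate block 0 were called higher (*Pfkfb3*: adjusted p = 0.0665 from limma). The deviations of same-numbered tumors correlated at 0.0074, 0.015, 0.17 and 0.19, and those of other pairs between -0.18 and 0.047. The 2 higher values, of DTC3 with T3 and DTC4 with T4, were the highest of all pairs, but as DTC1 and DTC2 did not correlate best with their own number, and no label ties the numbers to a shared source, the numbers were not taken as pairs. With an unadjusted p up to 0.05, the block gave 71 members higher and 17 lower, no filter gave 125 higher, an interquartile range above 0.5 gave 19, and left-out tumors gave 36 to 153, the most without DTC3.

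Of 901 values of 53 named genes under alternatives, 14 had the opposite sign, in 3 genes. *Fitm2* (-0.13 in the test reported) was 0.010 with array weights and between -0.26 and 0.038 with a tumor left out. *Osbpl6* (0.0092) was -0.0075 and -0.013 under the 2 median centrings and between -0.34 and 0.79 with a tumor left out. *Ube2l6* (0.036) was between -0.35 and 0.56 with a tumor left out. No direction is given for these genes.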
